A study of Mus musculus with 3 samples.

Results

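Insulin-like growth factor 1 (*Igf1*), its receptor *Igf1r* and the IGF binding protein genes *Igfbp2*, *Igfbp3*, *Igfbp4*, *Igfbp5*, *Igfbp6* and *Igfbp7* were followed through healing of a mouse skin wound. These 8 genes were taken by symbol from the 32285 genes counted, and each symbol matched 1 gene. All 8 were detected on every day. The measurements are Visium spatial transcriptomes, in which a fresh frozen section lies on a slide of barcoded spots with poly(dT) probes and each captured molecule is counted once per spot by its unique molecular identifier (UMI). Per the study's methods, punch wounds through the full skin were made on the back of adult male C57BL/6J mice, and the labels name no engineered allele and no treatment. The groups were Day 3, Day 7 and Day 14 after wounding, with 1 section in each, so no test between days was possible.

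IGF1 is a secreted growth factor that acts through the receptor tyrosine kinase encoded by *Igf1r* and is known in skin as a product of mesenchymal cells and macrophages that acts on keratinocytes and fibroblasts. The secreted binding proteins encoded by *Igfbp2* to *Igfbp6* hold IGFs with high affinity and can withhold them from the receptor or carry them to it, and proteases such as those of the pappalysin and HTRA families can release the ligand. *Igfbp7* encodes a related protein that binds IGFs weakly and is known as a product of vessels and stroma.

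The sections held 664, 549 and 697 spots marked as under tissue in the order Day 3, Day 7 and Day 14, with 1772259, 4442962 and 4611723 UMIs. The median marked spot had 1513, 6687 and 4827 UMIs, so Day 3 was the shallowest and has the widest intervals. Between 49.0% and 59.2% of the UMIs of each slide lay outside the marked spots, and the levels below use the marked spots. Of 112 marker genes on 12 lists, 111 were among the genes counted, and the lists other than hair follicle and neutrophil had no gene at 0 on any day. The neutrophil list summed to 2274, 204 and 144 counts per 1000000 UMIs (CPM), with 2 genes at 0 on Day 7 and 1 on Day 14. The hair follicle list was at 3.39 on Day 3 with 6 of its 9 genes at 0, 5.4 on Day 7 with 1 at 0 and 4908 on Day 14. The matrix fibroblast list was at 56396, 80358 and 40958 CPM and the granulation list at 1729, 8069 and 1631.

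The positions are those of the GRCm38 annotation (GENCODE M21), in which all 8 genes are protein coding. *Igf1* (ENSMUSG00000020053) spans chr10:87858265-87937042 on the plus strand and *Igf1r* (ENSMUSG00000005533) chr7:67952827-68233668 on the plus strand. *Igfbp2* (ENSMUSG00000039323, chr1:72824503-72852474, plus) and *Igfbp5* (ENSMUSG00000026185, chr1:72857932-72874884, minus) are neighbors whose 3′ ends face each other across 5457 bases. *Igfbp3* (ENSMUSG00000020427, chr11:7206086-7213923, minus) lies 3539 bases from *Igfbp1*, of which no UMI was counted under tissue on any day. *Igfbp4* (ENSMUSG00000017493) spans chr11:99041244-99054392, *Igfbp6* (ENSMUSG00000023046) chr15:102144362-102149511, both on the plus strand, and *Igfbp7* (ENSMUSG00000036256) chr5:77349240-77408041 on the minus strand.

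The promoters of the 4 genes called different between days, as defined below, are shown to set their letters side by side, as the 250 bases before the RefSeq transcription start in GRCm38.p6, read 5′ to 3′ on the strand of the gene. Capitals mark the GC box GGGCGG in either direction. The windows are chr10:87860861-87861110 (plus) for *Igf1*, chr1:72824230-72824479 (plus) for *Igfbp2*, chr11:7213924-7214173 (minus) for *Igfbp3* and chr5:77408046-77408295 (minus) for *Igfbp7*.
Igf1: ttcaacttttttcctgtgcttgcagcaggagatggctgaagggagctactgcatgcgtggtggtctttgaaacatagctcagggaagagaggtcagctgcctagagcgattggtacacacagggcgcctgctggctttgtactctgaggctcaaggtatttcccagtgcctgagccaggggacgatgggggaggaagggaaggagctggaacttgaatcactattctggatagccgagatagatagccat
Igfbp2: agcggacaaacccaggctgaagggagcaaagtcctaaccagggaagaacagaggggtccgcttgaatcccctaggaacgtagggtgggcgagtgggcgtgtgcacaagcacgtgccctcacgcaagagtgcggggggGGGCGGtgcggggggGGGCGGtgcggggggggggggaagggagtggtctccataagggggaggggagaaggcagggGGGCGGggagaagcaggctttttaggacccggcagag
Igfbp3: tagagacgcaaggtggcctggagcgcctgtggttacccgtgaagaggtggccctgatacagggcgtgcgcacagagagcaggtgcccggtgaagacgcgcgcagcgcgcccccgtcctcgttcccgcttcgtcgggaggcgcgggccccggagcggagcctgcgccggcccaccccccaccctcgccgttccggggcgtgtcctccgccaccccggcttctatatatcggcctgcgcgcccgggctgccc
Igfbp7: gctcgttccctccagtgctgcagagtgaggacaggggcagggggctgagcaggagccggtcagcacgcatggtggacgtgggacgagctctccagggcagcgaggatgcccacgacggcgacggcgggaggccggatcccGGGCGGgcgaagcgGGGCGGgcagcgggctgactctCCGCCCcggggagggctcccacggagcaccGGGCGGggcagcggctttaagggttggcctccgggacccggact
The *Igfbp7* window held 4 GC boxes and the *Igfbp2* window 3, and the *Igf1* and *Igfbp3* windows held none. A GC box was present in 33.0% of 27025 promoters of the same length. No TATAAA in either direction was found in the 4 windows, against 13.0% of all promoters. GC content was 52.8% for *Igf1*, 67.2% for *Igfbp2*, 73.2% for *Igfbp3* and 74.0% for *Igfbp7*, beside a median of 52.0%. The *Igf1* window lies inside the span that GENCODE gives the gene, since RefSeq places the start farther downstream. These matches describe letters and are not binding sites.

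The first question was how the level of each gene differed between days. Levels are pooled CPM, the UMIs of a gene over those of all genes in the marked spots, and intervals are exact 95% intervals that cover counting error only. *Igf1* was highest on Day 7, binding proteins *Igfbp6* and *Igfbp7* were also highest on Day 7, *Igfbp3* was high on Day 3 and Day 7 and low on Day 14, and *Igfbp2* was high on Day 14 alone. A difference was called where it was at least 2-fold and its interval excluded equality. Between Day 3 and Day 7, 1 of the 8 genes was called higher (*Igfbp7*) and 0 lower, beside 7.95% and 6.49% of all genes tested. For Day 14 over Day 3, 1 was called higher (*Igfbp2*) and 2 lower (*Igf1* and *Igfbp3*), beside 14.2% and 6.83%. For Day 14 over Day 7, 1 was called higher (*Igfbp2*) and 3 lower (*Igf1*, *Igfbp3* and *Igfbp7*), beside 10.9% and 7.34%. The median log2 ratio of the 8 genes was 0.23, -0.28 and -0.64 in these 3 comparisons, beside 0.04, 0.18 and 0.13 over all genes tested. The 3 comparisons share sections and are not independent.

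**Figure D1:**
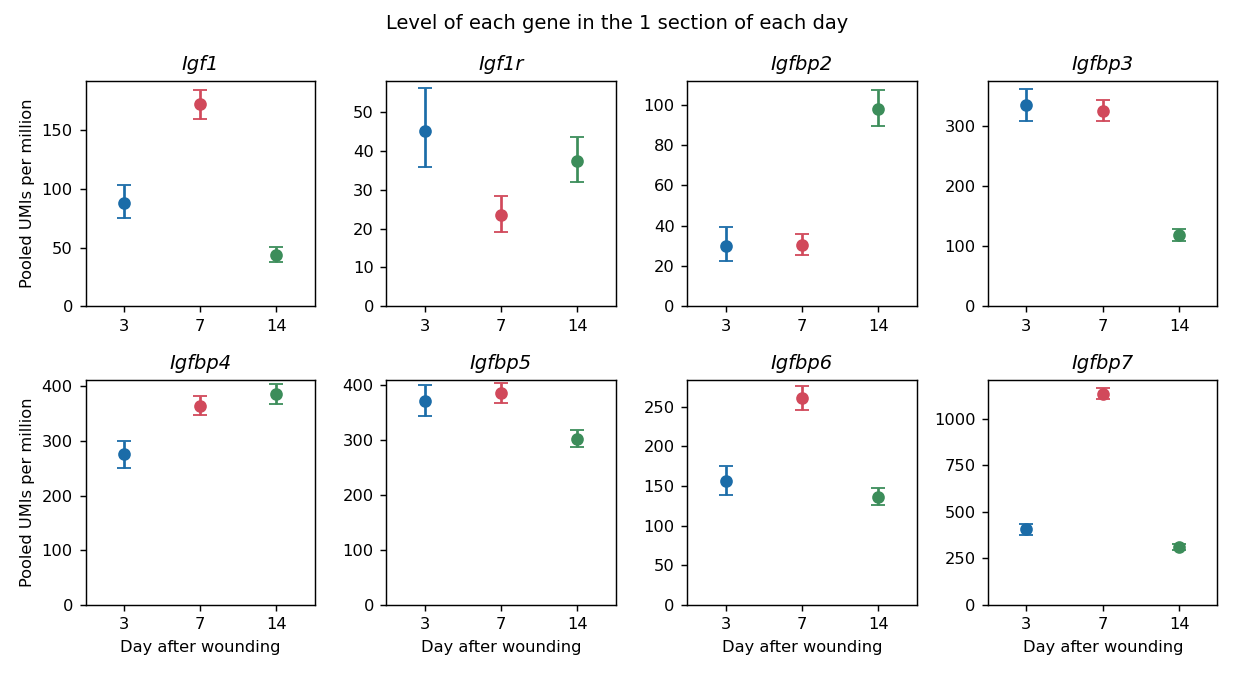
Pooled CPM of each gene (vertical axis, from 0, with its own scale per panel) in the 1 section of each day (horizontal axis). Points are the section values and bars exact Poisson 95% intervals; *Igf1* peaks at 172 on Day 7, *Igfbp7* at 1134 on Day 7 and *Igfbp2* at 98.0 on Day 14.

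The ligand *Igf1* was at 88.0 CPM on Day 3 (74.8 to 103, 156 UMIs), 172 CPM on Day 7 (160 to 185, 764 UMIs) and 43.8 CPM on Day 14 (38.0 to 50.3, 202 UMIs). Day 7 was high, Day 3 intermediate and Day 14 low, and no 2 intervals overlapped. Relative to Day 3, Day 7 was at a log2 ratio of 0.97 (0.72 to 1.22), or 1.95-fold, just short of a call. Day 14 over Day 7 was -1.97 (-2.20 to -1.75), or 3.93-fold lower. Day 14 over Day 3 was -1.01 (-1.32 to -0.70), just past 2-fold, and was -0.88 as the mean of spot CPM and -0.94 over all spots of the slide, which ended that call. Set against the median gene, which was 0.18 higher on Day 14 than on Day 3 and 0.13 higher than on Day 7, *Igf1* was at -1.19 and -2.10. In a spot of several cells, fewer cells of a type and less RNA per cell cannot be told apart. Per 1000 UMIs of the matrix fibroblast list, *Igf1* had 1.56 UMIs on Day 3 (1.33 to 1.83), 2.14 on Day 7 (interval 1.99 to 2.30) and then 1.07 on Day 14 (0.927 to 1.23). Per 1000 UMIs of the macrophage list it had 19.0 (16.1 to 22.3), 58.2 (54.0 to 62.6) and 36.8 (31.8 to 42.3). Day 7 was therefore the highest day on both scales, whereas the order of Day 3 and Day 14 was opposite on them.

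The receptor gene *Igf1r* was at 45.1 CPM on Day 3 (35.8 to 56.2), 23.4 on Day 7 (interval 19.1 to 28.4) and then 37.5 on Day 14 (32.1 to 43.5). Its lowest day was thus the highest day of the ligand, with a log2 ratio of -0.95 (-1.38 to -0.51) for Day 7 over Day 3, and the intervals of Day 3 and Day 14 overlapped. With 80 to 173 UMIs per section it was one of the most thinly counted of the 8 genes.

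Among the binding proteins, *Igfbp7* was at 406 CPM on Day 3 (377 to 436), 1134 on Day 7 (interval 1103 to 1166) and then 310 on Day 14 (294 to 327). The Day 7 level stood 2.80-fold above Day 3 (log2 1.48, 1.37 to 1.60) and 3.66-fold above Day 14. Day 14 was below Day 3 by a log2 ratio of -0.39, which turned to 0.04 as the mean of spot CPM, where every spot has equal weight. On Day 7, *Igfbp7* had at least 1 UMI in 89.6% of the marked spots, and its UMIs made up 45.4% of the UMIs of the 6 binding protein genes (44.4 to 46.3), against 25.8% on Day 3 and 22.9% on Day 14.

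*Igfbp3*, known as the main carrier of IGFs in serum, was at 334 CPM on Day 3 (308 to 362), 325 on Day 7 (interval 309 to 343) and then 119 on Day 14 (109 to 129). Day 3 and Day 7 overlapped, and Day 14 lay below both, with log2 ratios of -1.49 (-1.66 to -1.32) against Day 3 and -1.46 (-1.6 to -1.31) against Day 7. Its UMIs were unevenly spread over spots. A single spot held 101 of the 1446 UMIs of Day 7, and 10 spots held 36.8% of the 592 UMIs of Day 3, so the counting intervals are too narrow for differences between spots.

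*Igfbp2* was at 29.9 CPM on Day 3 (22.4 to 39.1, 53 UMIs), 30.2 on Day 7 (25.3 to 35.7, 134 UMIs) and 98.0 on Day 14 (89.2 to 107, 452 UMIs). Day 14 was high and the other days overlapped, with log2 ratios of 1.71 (1.3 to 2.15) over Day 3 and 1.70 (1.42 to 1.99) over Day 7. The UMIs of Day 3 lay in 30 spots, and 10 of these held 62.3% of them. As the mean of spot CPM, which gives the shallow spots of Day 3 equal weight, the log2 ratios to Day 3 were 1.31 for Day 7 and 3.14 for Day 14.

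*Igfbp6*, which binds IGF2 in preference to IGF1, was at 156 CPM on Day 3 (138 to 176), 261 on Day 7 (interval 246 to 277) and then 136 on Day 14 (126 to 147). Day 7 was the high day, by a log2 ratio of 0.74 (0.55 to 0.94) over Day 3, and the intervals of Day 3 and Day 14 overlapped. Day 14 over Day 7 was -0.94 (-1.08 to -0.80), just short of a call. It was -1.04 with TMM factors, -1.06 with size factors and -1.08 without muscle-rich spots, each past 2-fold. The contrast of Day 7 with Day 3 reversed to -0.19 when all spots of the slide were used, and the Day 3 slide had 304 CPM of *Igfbp6* outside the marked spots, 1.94 times the level inside.

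*Igfbp4* and *Igfbp5* differed least between days. *Igfbp4* was at 275 CPM on Day 3 (251 to 301), 364 on Day 7 (interval 347 to 383) and then 386 on Day 14 (369 to 405), so Day 3 was the low day and the later days overlapped. *Igfbp5*, a binding protein known to bind extracellular matrix, was at 370 (342 to 400), 384 (366 to 403) and 302 CPM (286 to 318), with Day 14 the low day and Day 3 and Day 7 overlapping. Day 14 over Day 3 was -0.30 (-0.43 to -0.16) for *Igfbp5* in the marked spots and 0.01 over all spots of the slide.

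Relative to the ligand, the UMIs of the 6 binding protein genes numbered 17.9 per *Igf1* UMI on Day 3 (15.2 to 21.1), 14.5 on Day 7 (interval 13.5 to 15.7) and then 30.8 on Day 14 (26.8 to 35.7). The Day 14 ratio was above the other days with no overlap, and Day 7 was the lowest although *Igfbp7* was then at its highest. *Igfbp2* had 0.340, 0.175 and 2.24 UMIs per *Igf1* UMI on the 3 days. *Igfbp3* had 3.79, 1.89 and 2.71. These are ratios of captured 3′ molecules, comparable between days but not a proportion of protein.

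Of 20 further genes of the pathway, 12 had at least 50 UMIs in a section. The second ligand, *Igf2*, was at 2.82 CPM on Day 3 (0.916 to 6.58, 5 UMIs), 52.2 on Day 7 (45.7 to 59.4) and 13.0 on Day 14 (9.93 to 16.7), with Day 7 the high day and no overlap. Day 7 relative to Day 3 was at 4.21 on the log2 scale (2.97 to 5.85). Outside the marked spots *Igf2* was at 9.39 CPM on Day 3 (16 UMIs) and 27.3 CPM on Day 7, so the contrast was smaller there. *Igf2r*, which clears IGF2 from the cell surface, was at 38.9, 71.6 and 33.8 CPM, with Day 7 the high day. *Insr*, the insulin receptor, was at 28.2, 22.3 and 31.7 CPM with overlapping intervals.

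Among the proteases, *Htra1*, a secreted serine protease that can cut binding proteins, was at 150 CPM on Day 3, 423 on Day 7 and 296 on Day 14, with a log2 ratio of 1.5 (1.31 to 1.69) for Day 7 over Day 3. *Htra3* was at 208, 188 and 125 CPM. Inside the cell, the adaptors *Grb10* (57.0, 133 and 36.2 CPM) and *Shc1* (42.3, 89.8 and 62.2 CPM) were highest on Day 7, *Irs1* was at 31.6, 54.5 and 50.5 CPM and *Irs2* at 19.2, 10.6 and 17.1 CPM. *Pik3r1*, a regulatory subunit of PI3 kinase, was at 92.5, 59.4 and 63.8 CPM, *Foxo1*, a transcription factor that the pathway restrains, at 48.0, 28.8 and 51.8 CPM, and the feedback inhibitor *Socs2* at 18.1, 14.9 and 14.7 CPM. *Igfbp1*, *Igfals*, *Pappa*, *Pappa2*, *Stc1*, *Stc2*, *Igf2bp2* and *Igf2bp3* stayed under 50 UMIs in every section.

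For Day 7 over Day 3, 4 of the 14 pathway genes with enough UMIs were called higher (*Igf2*, *Grb10*, *Htra1* and *Shc1*) and 0 lower, beside 7.95% and 6.49% of all genes tested. For Day 14 over Day 3 it was 1 (*Igf2*) and 0 of 13, beside 14.2% and 6.83%. Between Day 7 and Day 14 it was 1 higher (*Stc1*) and 4 lower (*Igf2*, *Igf2r*, *Grb10* and *Igf2bp2*) of 16, beside 10.9% and 7.34%, where *Stc1* and *Igf2bp2* are named after their values were seen. The median log2 ratios of the list were 0.33, -0.16 and -0.10, beside the medians of all genes given above.

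The second question was where in each section the genes were found. Spots were called rich in a marker list if they were among the 20% with the largest share of UMIs from that list, of the spots with at least 500 UMIs. Per list, this gave 104, 108 and 138 spots in the order of days. Such spots are regions that hold several cell types, and the lists overlap. On Day 7, 58 of the 108 macrophage-rich spots were also matrix fibroblast-rich, and 69 of the 108 granulation-rich spots were. Spots are not replicates, and intervals again cover counting error only.

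**Figure D2:**
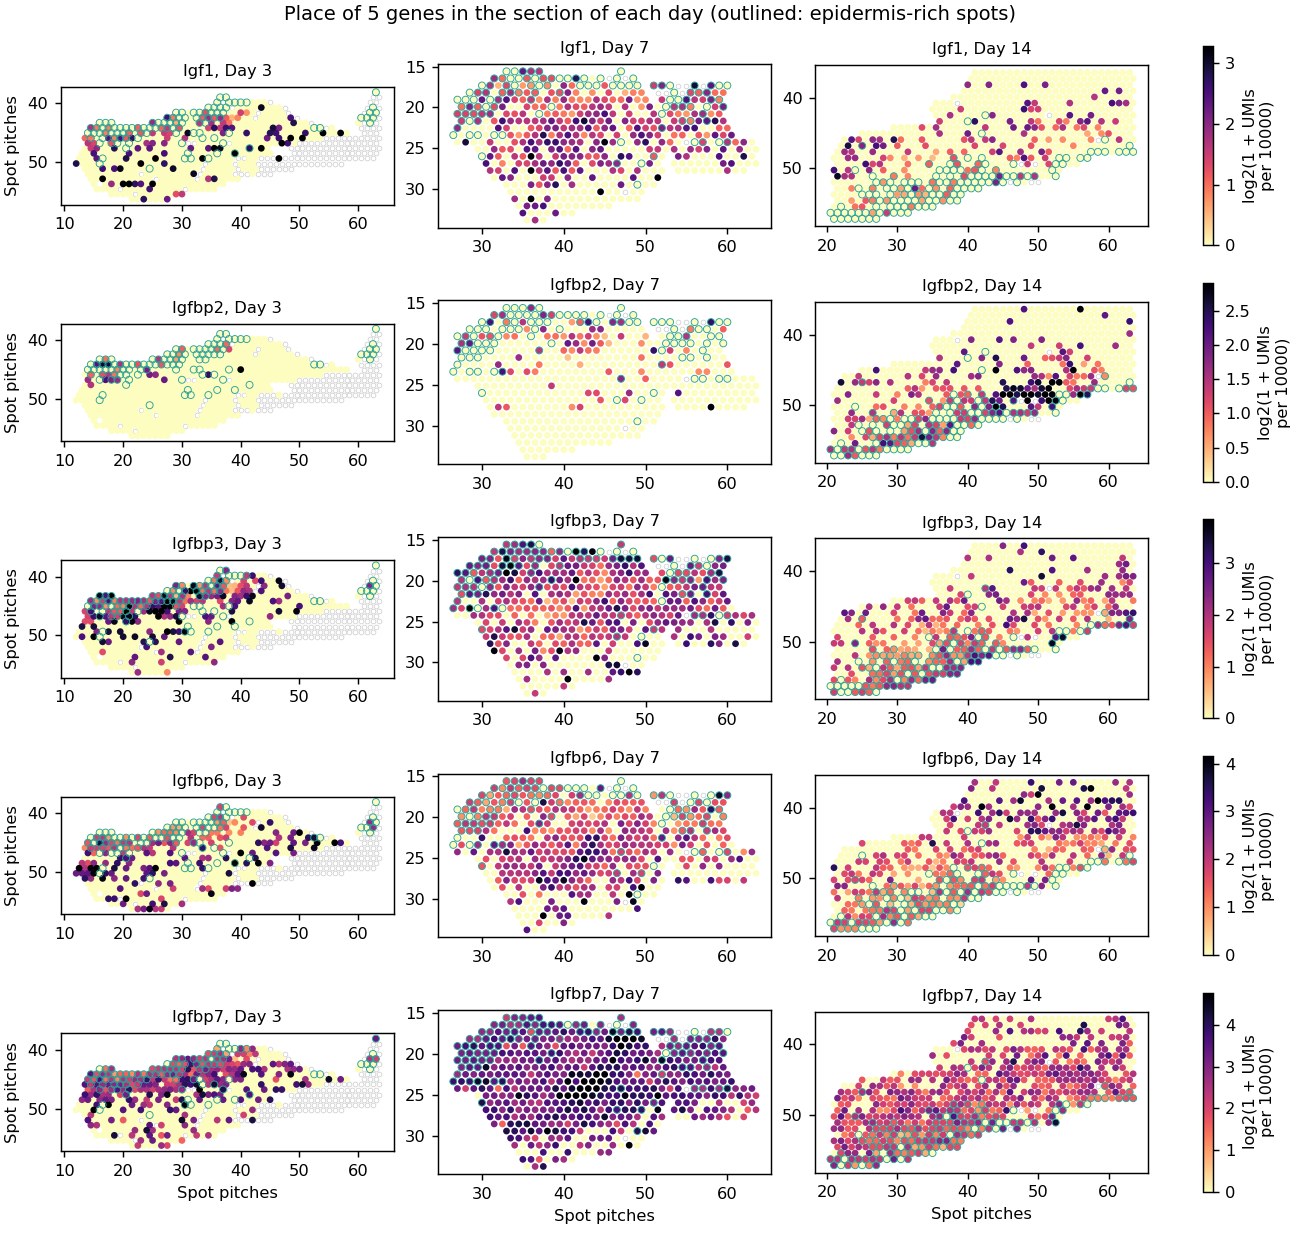
Maps of *Igf1*, *Igfbp2*, *Igfbp3*, *Igfbp6* and *Igfbp7* in the marked spots of each section, with axes in spot pitches and color as log2(1 + UMIs per 10000), capped at the 99th percentile of the gene. Outlined spots are epidermis-rich and open gray spots have under 500 UMIs. *Igfbp2* is higher in the epidermis-rich spots than in the rest on Day 3 but not on Day 14, and *Igfbp7* fills the Day 7 section.

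*Igf1* had lower pooled CPM in the epidermis-rich spots of every section. It was at 50.3 CPM there against 110 CPM in the other spots on Day 3 (log2 -1.13, -1.74 to -0.56), 115 against 184 on Day 7 (-0.68, -1.01 to -0.36) and 27.0 against 51.5 on Day 14 (-0.93, -1.48 to -0.42). The share of spots with an *Igf1* UMI was also taken after each spot was thinned to 1000 UMIs in a first random draw. By this share the epidermis-rich spots of Day 7, at 17.1% (10.49 to 25.73), were not below the 16.0% of all spots. That 16.0% was the highest of 20 draws (11.0% to 16.0%, median 13.8%), and the epidermis-rich share was taken in the first draw alone. In that draw the shares were 3.16% against 9.62% on Day 3 and 2.92% against 5.01% on Day 14. *Igf1* was high in the macrophage-rich spots of Day 7 (247 against 143 CPM, log2 0.79, 0.57 to 1.0) and Day 14 (79.8 against 36.2 CPM, 1.14, 0.69 to 1.58), but not beyond counting error on Day 3 (0.22, -0.33 to 0.74). In macrophage-rich spots that were not also matrix fibroblast-rich it was at 182 CPM on Day 7 and 46.3 CPM on Day 14. Both intervals overlapped those of spots rich in neither list. The matrix fibroblast-rich spots gave log2 ratios of 0.06 (-0.46 to 0.56), 0.62 (0.41 to 0.83) and 1.16 (0.72 to 1.59). On Day 3 its ratio was highest in fascial fibroblast-rich spots (140.6 against 83.0 CPM, 0.76, 0.05 to 1.41) and in fat-rich spots (133 against 80.2 CPM, 0.73, 0.15 to 1.28), and the fascial ratio was 0.08 on Day 7 and 1.18 on Day 14.

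In the granulation-rich spots, marked by genes such as *Postn*, *Tnc* and *Acta2*, *Igf1* was at 59.0 CPM against 97.7 in the rest on Day 3 (-0.73, -1.41 to -0.10), 214 against 151 on Day 7 (0.50, 0.29 to 0.71) and 72.5 against 37.2 on Day 14 (0.96, 0.51 to 1.40). It was the low side on Day 3 and the high side on the later days. The granulation-rich spots differed in make-up between days. On Day 3, 51 of the 104 were also neutrophil-rich and 21 matrix fibroblast-rich. Matrix fibroblast-rich were 69 of 108 on Day 7 and 78 of 138 on Day 14. The median granulation-rich spot held 8, 133 and 17 UMIs of its list in the order of days. At least 1.5-fold with the interval excluding equality, 0 of the 8 genes were higher and 5 lower in the granulation-rich spots of Day 3, beside 19.7% and 16.0% of all genes tested. The 5 were *Igf1*, *Igfbp2*, *Igfbp3*, *Igfbp5* and *Igfbp6*, and *Igfbp3* turned to 0.27 when the richest 30% of spots were taken. On Day 7 it was 1 higher (*Igfbp7*) and 0 lower, beside 7.77% and 11.9%. On Day 14 it was 2 higher (*Igf1* and *Igfbp2*) and 0 lower, beside 6.93% and 3.44%. The median log2 ratio of the 8 genes was -0.68, 0.01 and 0.26, beside 0.10, -0.02 and -0.00 over all genes tested.

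*Igf1r*, unlike its ligand, was at higher levels in the epidermis-rich spots. In the epidermis-rich spots it was at 58.1 CPM against 37.6 on Day 3 (log2 0.63, -0.05 to 1.3), 36.6 against 20.6 on Day 7 (0.83, 0.16 to 1.47) and 48.4 against 32.6 on Day 14 (0.57, 0.11 to 1.03). The direction was the same in the 3 sections, and only the Day 3 interval included equality. No other list gave it a higher ratio with an interval above 0 on any day.

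*Igfbp2* had different places in the 3 sections. On Day 3 it was at 58.1 CPM in the epidermis-rich spots against 14.3 in the rest (log2 2.02, 1.14 to 2.97), and on Day 7 at 49.3 against 26.0 (0.92, 0.34 to 1.47). On Day 14 the values were 92.7 and 100.2 CPM (-0.11, -0.41 to 0.18), so the epidermis no longer stood out. In the granulation-rich spots it was at 14.2 against 35.3 CPM on Day 3 (-1.32, -2.83 to -0.09), 28.8 against 30.9 on Day 7 (-0.10, -0.66 to 0.44) and 234 against 66.3 on Day 14 (1.82, 1.54 to 2.09). The macrophage-rich and matrix fibroblast-rich spots of Day 14 gave 1.47 (1.18 to 1.75) and 1.71 (1.43 to 1.98). These 2 sets of 138 spots shared 63. The spots of Day 14 that were macrophage-rich alone were at 84.8 CPM (58.4 to 119). This overlapped the 66.2 CPM (57.78 to 75.55) of spots rich in neither list. The muscle-rich spots were low on Day 14, at 14.7 against 106 CPM (-2.85, -4.30 to -1.72), and had no *Igfbp2* UMI on Day 3. With 53 UMIs in 30 spots, the Day 3 intervals are too narrow for the spread between spots.

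*Igfbp3* was higher in the epidermis-rich spots than in all other spots of each section. The epidermis-rich spots were at 408 CPM against 291 on Day 3 (0.49, 0.25 to 0.73), 418 against 305 on Day 7 (0.45, 0.27 to 0.63) and 163 against 98.6 on Day 14 (0.72, 0.47 to 0.97), though the Day 3 ratio was -0.10 with the richest 10% of spots. On Day 3 the spots 1 to 2 spot spacings from them were at 410 CPM (362 to 462). The epidermis-rich spots of Day 3 thus did not stand out from their neighbors. The macrophage-rich spots were low on the 3 days, by log2 ratios of -0.93, -0.68 and -0.38. The matrix fibroblast-rich spots were high on Day 3 (605 against 213 CPM, 1.51, 1.27 to 1.75) and low on Day 7 (240 against 373 CPM, -0.64, -0.81 to -0.47), and 36 of the 104 epidermis-rich spots of Day 3 were matrix fibroblast-rich.

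*Igfbp6* was high on the fascial side of the sections. In the fascial fibroblast-rich spots, chosen by genes such as *Pi16* and *Dpp4*, it was at 422 CPM against 130 on Day 3 (1.70, 1.28 to 2.10), 330 against 252 on Day 7 (0.39, 0.14 to 0.62) and 311 against 114 on Day 14 (1.44, 1.17 to 1.70). It was low in the epidermis-rich spots, by -0.72, -0.76 and -0.66, and high in the macrophage-rich spots, by 0.48, 0.90 and 0.76, with every one of these intervals off 0. On Day 14 the muscle-rich spots were also high, at 252 against 125 CPM (1.01, 0.69 to 1.32), of which 31 of 138 were fascial fibroblast-rich.

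*Igfbp7* was high in the endothelium-rich spots of each section. The endothelium-rich spots were at 600.3 CPM against 365 on Day 3 (0.72, 0.48 to 0.96), 1683 against 1007 on Day 7 (0.74, 0.65 to 0.83) and 365 against 302 on Day 14 (0.27, 0.06 to 0.48). The pericyte-rich spots gave 0.53 (0.27 to 0.78), 0.68 (0.59 to 0.77) and -0.05 (-0.27 to 0.17). The granulation-rich spots of Day 7 were at 1514 against 943 CPM (0.68, 0.60 to 0.76), and 34 of those 108 spots were endothelium-rich. The endothelium list itself was at 591, 628 and 205 CPM on the 3 days and the pericyte list at 261, 420.0 and 237. Both kinds of spots were chosen on few marker counts. The median endothelium-rich spot held 3, 6.5 and 2 UMIs of its list in the order of days, and the median pericyte-rich spot 2, 4 and 2.

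*Igfbp4* was high in the fascial fibroblast-rich spots of Day 3 (483 against 256 CPM, 0.91, 0.55 to 1.26) and the macrophage-rich spots of Day 7 (490 against 317 CPM, 0.63, 0.48 to 0.77). On Day 14 it was high in the hair follicle-rich spots (472 against 350.2 CPM, 0.43, 0.29 to 0.57), the sole binding protein with an interval above 0 there. *Igfbp5* was high in the matrix fibroblast-rich spots of Day 3 (1.37, 1.14 to 1.60) and Day 14 (440 against 269 CPM, 0.71, 0.54 to 0.88) and in the fascial fibroblast-rich spots of Day 14 (525 against 273 CPM, 0.94, 0.75 to 1.13). Its Day 7 ratios in the same spots were 0.07 and 0.02. *Igfbp2* and *Igfbp5*, neighbors on chromosome 1, were thus both high in the matrix fibroblast-rich spots of Day 14. The fascial fibroblast-rich spots of Day 14 were high in *Igfbp5* and low in *Igfbp2* (-1.11, -1.75 to -0.53).

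**Figure D3:**
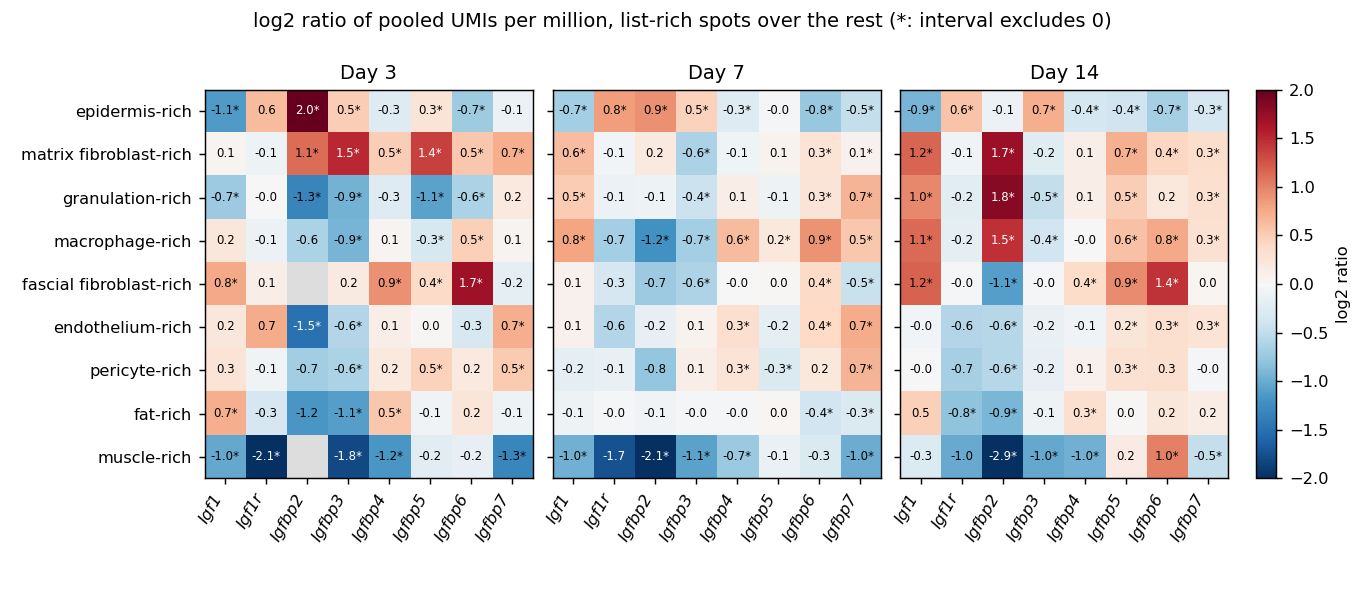
log2 ratio of pooled CPM in list-rich spots over the other spots of the section (color and printed number) for 9 marker lists and the 8 genes on each day, with * where the 95% counting interval excludes 0 and gray where a gene had no UMI in the rich spots. *Igf1* is blue in the epidermis-rich line on every day, *Igfbp6* is red in the fascial line on every day, and *Igfbp2* in the granulation line is blue on Day 3 and red on Day 14.

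Distance to the nearest epidermis-rich spot was then measured in spot pitches, the spacing between neighboring spots. It is not depth in the skin, since epidermis-rich spots were chosen by list share alone. On Day 3, 2 such spots at 24.5 and 24 pitches across lay at 51.1 and 45.0 pitches down, with 634 and 3548 UMIs. Below, far from the epidermis means over 4 pitches from the nearest epidermis-rich spot. Spots over 4 pitches away numbered 85 on Day 3, 106 on Day 7 and 203 on Day 14, and the farthest lay at 6.25, 10.8 and 11.5 pitches. The 4-pitch summary was chosen after values were seen. *Igf1* was higher far from the epidermis in each section, at 154 against 80.5 CPM on Day 3 (log2 0.94, 0.30 to 1.53), 249 against 159 on Day 7 (0.65, 0.39 to 0.90) and 62.8 against 39.8 on Day 14 (0.66, 0.17 to 1.13). The farthest bin was an exception. On Day 7 *Igf1* was at 115, 148, 209 and 271 CPM in the bins up to 7 pitches and at 146 CPM beyond, a bin of 35 spots with 17 UMIs in which the muscle list held 12.1% of UMIs, against 5.23% in the bin before it. On Day 14 the farthest bin, of 75 spots with 5 UMIs, was at 28.1 CPM with 18.2% muscle list UMIs, and the part of muscle in these values was not tested.

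*Igfbp3* ran the other way, with log2 far over near ratios of -2.40 (-3.32 to -1.62), -0.69 (-0.95 to -0.44) and -0.57 (-0.95 to -0.20). *Igfbp2* had no UMI over 4 pitches away on Day 3 (0 against 33.8 CPM) and was low there on Day 7 (6.14 against 34.3 CPM) and Day 14 (50.5 against 108 CPM). *Igfbp6* was high far from the epidermis on Day 7 (471 against 225 CPM, 1.06, 0.87 to 1.25) and Day 14 (271 against 108 CPM, 1.33, 1.09 to 1.57), with 207 against 151 CPM on Day 3 (0.45, -0.07 to 0.95). *Igfbp4* was high there on Day 3 (0.58, 0.20 to 0.94) and Day 7 (0.84, 0.67 to 1.0), and on Day 14 it was at 346 against 395 CPM (-0.19, -0.38 to -0.0072). *Igfbp5* was low there on Day 3 (-0.88, -1.38 to -0.42) and higher on Day 7 (0.32, 0.14 to 0.50) and Day 14 (0.33, 0.14 to 0.51). *Igfbp7* was low there on Day 3 (-1.02, -1.52 to -0.56) and higher on Day 7 (0.35, 0.24 to 0.45). On each of the 3 days *Igfbp2* and *Igfbp3* were thus lower, and *Igf1* higher, far from the epidermis than near it.

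**Figure D4:**
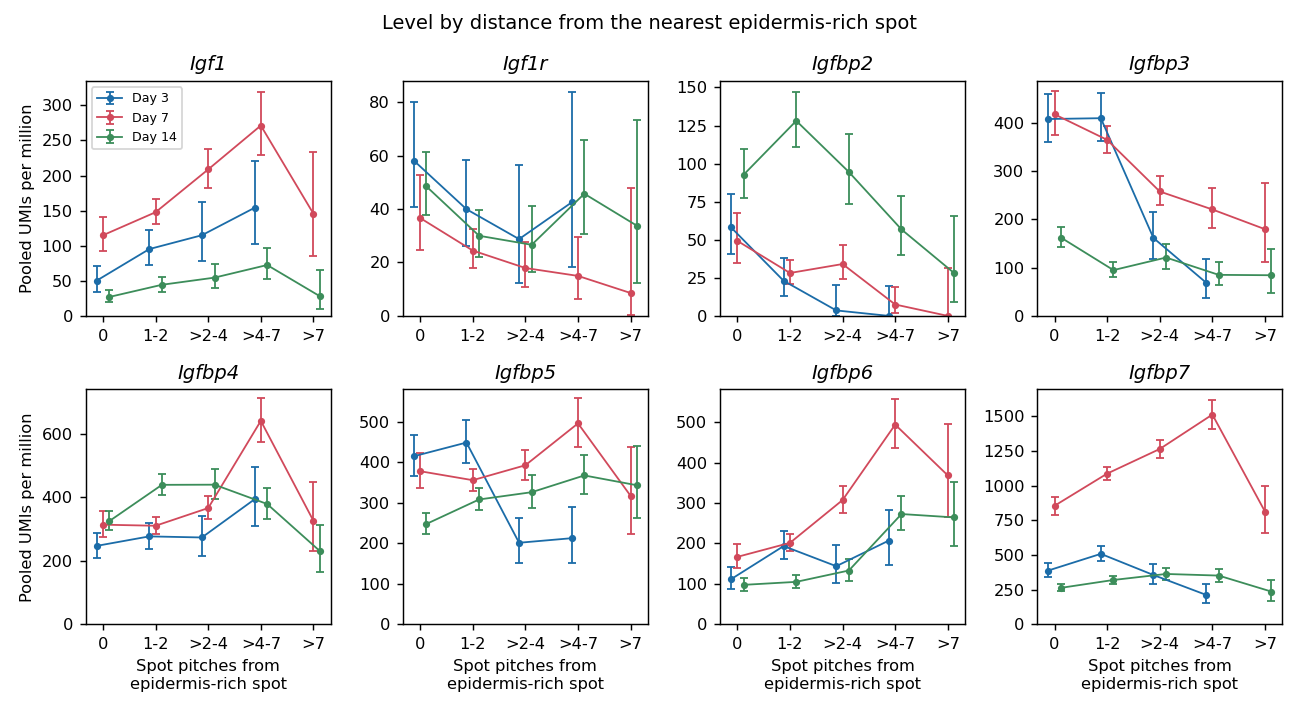
Pooled CPM of each gene (vertical axis, from 0) by distance in spot pitches from the nearest epidermis-rich spot (horizontal axis, where 0 is the epidermis-rich spots), for the 3 sections, with exact Poisson 95% intervals. *Igfbp3* on Day 3 is at 408 in the epidermis-rich spots, 410 at 1 to 2 pitches and 69.0 in the farthest bin. *Igfbp6* on Day 7 is at 167 in the epidermis-rich spots and 494 in the bin of over 4 to 7 pitches.

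The third question was which binding proteins shared spots with *Igf1*. Deeper spots hold more of every gene, so each spot was thinned to 1000 UMIs, which kept 426, 525 and 679 spots and left out 238, 24 and 18. After a first draw of this thinning, 41 of the 426 spots had an *Igf1* UMI on Day 3 (9.62%, 7.00 to 12.8), 84 of 525 on Day 7 (16.0%, 13.0 to 19.4) and 34 of 679 on Day 14 (5.01%, 3.49 to 6.93). Over 20 draws the median shares were 9.62%, 13.8% and 4.27%, and the first draw was the highest of Day 7. The intervals do not cover the difference between draws. Without thinning the shares were 17.0%, 56.8% and 22.1% of all marked spots. For comparison, the muscle-rich spots had an *Igf1* UMI in 2.35% (0.286 to 8.24), 10.2% (5.0 to 18.0) and 2.29% (0.475 to 6.55) of spots after thinning. They are not a background free of other cells, since 42 of the 108 on Day 7 were also fascial fibroblast-rich. The muscle-rich spots had median depths of 1791, 2502 and 2941 UMIs before thinning and the macrophage-rich spots, at 14.3%, 21.0% and 7.35%, of 2714, 11185 and 4781, and the intervals of these shares overlapped on each day.

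No binding protein had a larger share among the spots with *Igf1*, with intervals apart, on any day of the first draw. This cannot exclude sharing, because the spots counted as without *Igf1* include spots that lost their *Igf1* UMI to thinning. On Day 7, 312 marked spots had an *Igf1* UMI before thinning and 84 after it. The sets with *Igf1* were also small on Day 3 and Day 14, at 41 and 34 spots. Thinning was repeated in 20 draws of the same spots, which are not replicates. Over these draws, *Igfbp7* had a median share of 27.1% in the *Igf1* spots and 28.5% in the others on Day 3, 57.6% and 58.7% on Day 7 and 25.0% and 24.7% on Day 14. The difference ran from -7.01 to 12.3 points over the draws of Day 3, with 12 of 20 lower, and from -11.0 to 9.75 on Day 7, with 13 of 20 lower. *Igfbp4* had median shares of 27.4% and 24.1%, 30.3% and 27.8%, and 34.9% and 29.2%, and its differences crossed 0 on each day. In the first draw, the one pair of shares whose intervals did not overlap was that of *Igfbp5* on Day 3, which had a UMI in 2 of 41 *Igf1* spots (4.88%, 0.596 to 16.5) and in 104 of 385 others (27.0%, 22.6 to 31.7). Over 20 draws the *Igfbp5* share was lower in the *Igf1* spots each time, with a difference of -22.1 to -4.79 points and a median of -11.7, so the first draw was the most extreme. Without thinning the sign was opposite, at 9.23 points higher in the *Igf1* spots, where depth differs between the sets.

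**Figure D5:**
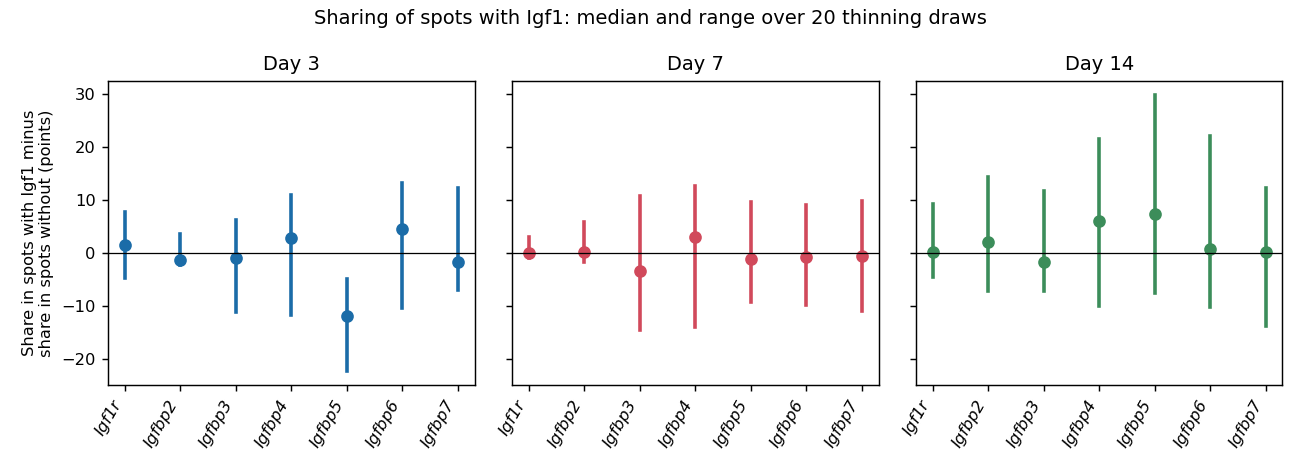
Share of spots with a UMI of each gene among spots with an *Igf1* UMI minus the share among spots without one, in percentage points (vertical axis), after thinning to 1000 UMIs per spot. Points are medians and bars the lowest to highest of 20 draws of the same section, not sampling error; *Igfbp5* on Day 3 is the one bar that does not cross 0.

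Pooled levels in the same sets of spots, over all their UMIs, called 0 of the 7 other genes higher and 2 lower on Day 3 (*Igfbp3* and *Igfbp5*), beside 4.70% and 4.41% of all genes tested. On Day 7 it was 0 and 0, beside 1.72% and 1.65%. On Day 14 it was 2 higher (*Igfbp2* and *Igfbp5*) and 0 lower, beside 3.16% and 2.16%. The median log2 ratio of the 7 genes was 0.08, 0.15 and 0.46, beside -0.03, 0.00 and -0.04 over all genes tested. These calls changed with the draw, from 0 to 2 higher and 0 to 2 lower on Day 3 and Day 7 and from 0 to 4 higher and 0 to 1 lower on Day 14. The draws reuse the same spots and UMIs, so counts of draws show dependence on the draw and are not replication. *Igfbp5* on Day 14 was higher in the *Igf1* spots in all 20 draws (log2 0.15 to 1.02, median 0.43), *Igfbp2* on Day 14 in 17 (median 0.79) and *Igfbp6* on Day 7 in 18 (median 0.15). *Igfbp3* on Day 3 was higher in 10 and lower in 10. *Igfbp5* on Day 3 was lower in 18, with a median log2 ratio of -0.43, short of 1.5-fold, and the -1.49 of the first draw was the lowest. The sets also differed in their surroundings, since on Day 14 the *Igf1* spots had 58673 CPM of the matrix fibroblast list against 40005 in the others and 1853 against 1155 CPM of the macrophage list, whose part in the result was not tested.

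Across single spots the correlations with *Igf1* were weak and are given as a description. Over the 520, 539 and 689 spots with at least 500 UMIs, Pearson's r on log1p of UMIs per 10000 had the highest mean among the binding proteins for *Igfbp4*, at 0.07, 0.15 and 0.15, followed by *Igfbp7* at 0.08, 0.16 and 0.05 and *Igfbp6* at 0.10, 0.10 and 0.04. *Igfbp3* was at 0.04, 0.00 and 0.05. After thinning to 1000 UMIs this order did not hold, with *Igfbp4* at 0.06, 0.03 and 0.02 and *Igfbp7* at 0.08, 0.07 and 0.0045. The median over 2976 genes with at least 100 UMIs in each section was 0.02, 0.08 and 0.03, and the points of a section share their depth. The 5 genes most like *Igf1* by the mean r of the 3 sections were *Col1a2* (0.19), *Col1a1* (0.19), *Col3a1* (0.19), *Col6a3* (0.18) and *Sparc* (0.18), each with r of 0.08 to 0.10 on Day 3, 0.28 to 0.31 on Day 7 and 0.15 to 0.18 on Day 14. Of these 5, all but *Col6a3* are on the matrix fibroblast list. After thinning to 1000 UMIs these lay between -0.05 and 0.12. By the mean r before thinning *Igfbp4* ranked 104, *Igfbp7* 320, *Igfbp6* 555, *Igfbp5* 1288 and *Igfbp3* 1908 of the 2976.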

How the data were processed

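Visium libraries from 1 skin wound section per day were analysed as deposited. The authors counted reads with Space Ranger 1.3.0 on mm10, per the submitters' processing notes, and deposited raw UMI counts of 32285 genes for the 4992 spots of each slide with the list of spots under tissue. The annotation release behind the counts is not given in the sources used here. Counts were summed over marked spots per section. A ratio between pooled sums has an exact 95% interval from the conditional binomial, and these intervals treat UMIs as independent and cover counting error only. All genes with at least 50 UMIs in the sections or spots compared gave the background shares. The barcodes are slide positions, so all 4992 recur in every library. No doublet caller was run, since a spot can hold several cells.

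Spots with at least 500 UMIs were ranked by the share of UMIs from each of 12 marker lists, none of which holds an IGF gene. Named genes were the 8 members, the pathway genes with at least 50 UMIs in at least 1 section, and the 5 genes with the highest mean correlation with *Igf1*. The other pathway genes were given by name alone, and *Stc1* and *Igf2bp2* were singled out after their calls were seen. Alternatives included TMM and DESeq2 size factors, mean spot CPM, all slide spots, other list thresholds and other thinning depths. The members and lists were chosen with earlier results of these data known. The 4-pitch summary, the split of spots by macrophage and matrix lists and the 20 thinning draws were chosen after the data were seen. Intervals for ratios were tested on simulated counts, a check that does not cover the uneven spread of UMIs between spots. The shares after thinning were not tested on simulated data. Positions are from GENCODE M21 (GRCm38) and promoter sequences from RefSeq (GRCm38.p6), which held all 8 members. Protein sequences were not used here. Python 3.11.15, numpy 2.4.6, scipy 1.17.1, pandas 2.3.3, R 4.3.3, edgeR 4.0.16 and DESeq2 1.42.0 were used, edgeR and DESeq2 for scaling factors alone.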

Additional observations from a re-analysis of the deposited data

Results flagged for a closer look

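The spots outside the tissue mask held UMIs of the 8 genes that the comparisons above leave out, 2365 on Day 3, 11257 on Day 7 and 5604 on Day 14. These were 43.9%, 48.5% and 45.9% of the UMIs of these genes on each slide.

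Several log2 ratios of list-rich spots over the rest had opposite signs on different days, with each interval off 0. The difference between days was not tested in any of them, since each day is 1 section. The granulation-rich spots also differed in make-up between days, as given above. In the granulation-rich spots *Igf1* was at -0.73 on Day 3, 0.50 on Day 7 and 0.96 on Day 14, *Igfbp2* at -1.32 on Day 3 and 1.82 on Day 14, *Igfbp5* at -1.07 on Day 3 and 0.49 on Day 14, and *Igfbp6* at -0.63 on Day 3 and 0.26 on Day 7. In the macrophage-rich spots *Igfbp2* was at -1.21 on Day 7 and 1.47 on Day 14, and *Igfbp5* at -0.31, 0.21 and 0.59 on the 3 days. In the matrix fibroblast-rich spots *Igfbp3* was at 1.51 on Day 3 and -0.64 on Day 7. In the epidermis-rich spots *Igfbp5* was at 0.26 on Day 3 and -0.40 on Day 14. In the pericyte-rich spots *Igfbp5* was at 0.46, -0.29 and 0.30. In the sebaceous gland-rich spots *Igfbp2* was at 1.64 on Day 3 and -0.57 on Day 14, *Igfbp4* at -0.32 on Day 7 and 0.20 on Day 14, and *Igfbp7* at 0.27 on Day 3 and -0.49 on Day 7. Of these, *Igfbp6* in granulation-rich and *Igfbp5* in macrophage-rich spots on Day 7, and *Igfbp5* in epidermis-rich spots on Day 3, changed sign with the richest 10% of spots.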

How the results depend on the processing

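No paired analysis was possible because each day has 1 section. With 1 section per day, a difference between days cannot be told apart from one between mice or sections, and intervals leave out both. Day 3 depth limits *Igfbp2* and *Igf1r* most. Of 168 values of ratios between days under alternatives, 140 moved by less than their counting interval and 3 reversed, and of 496 in list-rich spots 419 and 7. *Igfbp2* on Day 3 gave no value far from the epidermis or at 500 UMIs, with 0 UMIs there. The cause of the changes below was not tested.

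Over all slide spots, Day 7 relative to Day 3 was at a log2 ratio of 0.67 for *Igf1* (0.97 in the marked spots) and -0.19 for *Igfbp6* (0.74), Day 14 relative to Day 3 at 0.013 for *Igfbp5* (-0.30), Day 14 relative to Day 7 at -1.61 for *Igf1* (-1.97), and 1 gene was called lower on Day 14 than Day 3 (2). With the mean of spot CPM, Day 14 over Day 3 was 0.039 for *Igfbp7* (-0.39) with 1 gene called lower, Day 14 over Day 7 was -1.68 for *Igf1*, and 2 genes were called higher and 1 lower on Day 7 than Day 3 (1 and 0). Without the 10 top genes 2 were called higher on Day 7 than Day 3. At 1.5-fold, 3 were called higher and 1 lower on Day 7 than Day 3, and 2 higher on Day 14 than Day 7 (1). For Day 14 over Day 7, 4 were called lower (3) with TMM factors, with size factors, without muscle-rich spots and at 1.5-fold.

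With the richest 10% of spots, *Igf1* in granulation-rich spots was at 0.28 on Day 7 (0.50) and 1.42 on Day 14 (0.96), *Igfbp6* there at -0.22 on Day 7 (0.26), *Igfbp7* in matrix fibroblast-rich spots at -0.043 on Day 7 (0.09), *Igfbp5* in macrophage-rich spots at -0.19 on Day 7 (0.21), and on Day 3 in epidermis-rich spots *Igfbp3* at -0.095 (0.49) and *Igfbp5* at -0.37 (0.26). *Igfbp4* far over near on Day 14 was 1.67e-05 (-0.19). With the richest 30%, *Igfbp3* in granulation-rich spots was at 0.27 on Day 3 (-0.94) and *Igf1* in muscle-rich spots at 0.20 (-1.03).

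For spots sharing *Igf1*, thinning to 500 UMIs called 2 genes higher and 0 lower on Day 3 (0 and 2), and 1 lower was called with thinning to 2000 or without muscle-rich spots, 0 without thinning and 0.5 as the median of 20 draws. The *Igfbp3* ratio on Day 3 was 0.78 at 500 UMIs, 0.012 at 2000 and 0.53 without thinning (-0.71), and the *Igfbp5* share difference 9.23 points without thinning (-22.1). On Day 7, 1 gene was called higher at 500, at 2000 and without thinning (0) and 1 lower at 500 (0), and the *Igfbp3* ratio was -0.98 at 500, -0.58 at 2000, -0.064 without thinning, -0.038 without muscle-rich spots and -0.23 as the median of 20 draws (0.33). On Day 14, 1 gene was called higher under each of the 5 alternatives (2), and *Igfbp4* was at -0.28 at 500 UMIs (0.58).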

Other observations

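On Day 7 and Day 14, *Igf1* was highest in spots rich in both the macrophage and the matrix fibroblast list, a split chosen after values were seen. On Day 7 the 58 spots rich in both were at 275 CPM (241 to 313), against 139 CPM (125 to 155) in spots rich in neither. Spots of Day 7 rich in the macrophage list alone were at 182 CPM (141 to 231). Those rich in the matrix fibroblast list alone were at 158 CPM (130 to 190), and both intervals overlapped that of neither. On Day 14 the 63 spots rich in both were at 111 CPM (81.6 to 149), against 34.2 CPM (28.2 to 41.0) in spots rich in neither. Spots of Day 14 rich in the macrophage list alone were at 46.3 CPM (27.4 to 73.1). Those rich in the matrix fibroblast list alone were at 51.0 CPM (32.7 to 75.9), and both intervals overlapped that of neither. On Day 3, 20 spots were rich in both and were at 79.0 CPM (34.1 to 156, 8 UMIs), against 80.6 CPM in spots rich in neither. *Igfbp2* was at 322 CPM (270 to 382) in the spots of Day 14 rich in both and at 66.2 CPM in those rich in neither. It was at 84.8 CPM (58.4 to 119) in spots rich in the macrophage list alone. In those rich in the matrix fibroblast list alone it was at 136 CPM (105 to 174).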
